A study of Mus musculus with 8 samples.

Results

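The Ms4a genes encode small membrane proteins with 4 membrane-spanning segments, and 8 of them are described here in mouse dendritic cells, which take up microbes and present antigen to T cells and were grown from bone marrow. The members are the rows of the deposited count table named Ms4a4a, Ms4a4b, Ms4a4c, Ms4a6b, Ms4a6c, Ms4a6d, Ms4a7 and Ms4a8a, which makes 8 of the 55376 genes in the table. They were taken by name, with earlier results of these data known. In the PM group the cells were stimulated overnight with heat-inactivated Prevotella melaninogenica, and in the PH group with heat-inactivated P. heparinolytica. The sources used here do not give the strain, genotype or age of the mice, nor the growth factor in which the cells were raised. There were 3 PM and 3 PH samples with the sample ids 1, 3 and 4 in each group. Unstimulated cells were not analysed here, so every difference lies between the 2 bacteria.

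Proteins of the MS4A family span the membrane 4 times and sit beside immune receptors, whose assembly and signalling they modulate. The best known are CD20 on B cells, encoded by Ms4a1, and the beta chain of the high-affinity IgE receptor on mast cells, encoded by Ms4a2. Other members are found on macrophages, monocytes and T cells, and several mouse members are known to be inducible by interferon. The genes lie next to each other in 1 cluster, which in the table ran from 10962293 to 11640834 on chromosome 19 (GRCm38), a span of 679 kb that held 19 Ms4a genes.

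Totals ranged from 11624367 counts in the PH sample with id 3 to 40233148 counts in the PH sample with id 4. The labelled cell type was checked against a list of 15 conventional dendritic cell markers, whose summed level was 11904 to 14376 CPM in PM samples and 12632 to 15507 CPM in PH samples (CPM are counts scaled to each sample's total). Most of this sum came from Cd74, Ccr7, Fscn1 and H2-Aa. Flt3 averaged 55.2 CPM with PM and 52.6 CPM with PH, and Zbtb46 72.1 CPM with PM and 75.9 CPM with PH. Cd209a was at 0 in all samples and Xcr1 and Clec9a, markers of cross-presenting dendritic cells, reached at most 0.433 and 1.43 CPM in any sample. The samples with id 1 stood apart from those with ids 3 and 4 under both bacteria. Their macrophage markers summed to 1077 CPM with PM and 969 CPM with PH, against 792 and 802 CPM in the other PM samples and 689 and 746 CPM in the other PH samples. Their T cell markers were lowest, at 22.5 CPM with PM and 23.9 CPM with PH, against 31.0 to 36.6 CPM in the other samples. In bulk RNA, fewer cells of a type and less RNA per cell cannot be told apart.

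Of the 8 members, 7 had enough counts to be tested, and 1 of the 7, Ms4a6c, differed at an adjusted p under 0.05 in edgeR, with p-values adjusted by Benjamini-Hochberg over the 14382 genes tested. It was lower with PM. Of all genes tested, 2.34% were called, 1.64% lower with PM and 0.702% higher. The median log2 fold change of the 7 members, PM over PH, was -0.45, beside 0.01 over all genes tested, and 4 of the 7 were below 0. With the sample id as a block, which compares PM and PH within each id, 3 members passed, Ms4a6b, Ms4a6c and Ms4a6d, each lower with PM, beside 15.3% of all genes, 8.27% lower and 7% higher. These 3 were also the members whose groups did not overlap, with all 3 PM samples below all 3 PH samples, as were 9.28% of all genes. No member had all PM samples above all PH samples, while 10.1% of all genes did. Within the ids, 4 of the 7 were lower with PM in 3 of 3, beside 22% of all genes, and Ms4a7 was higher in 3 of 3, beside 23.8%.

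**Figure D1:**
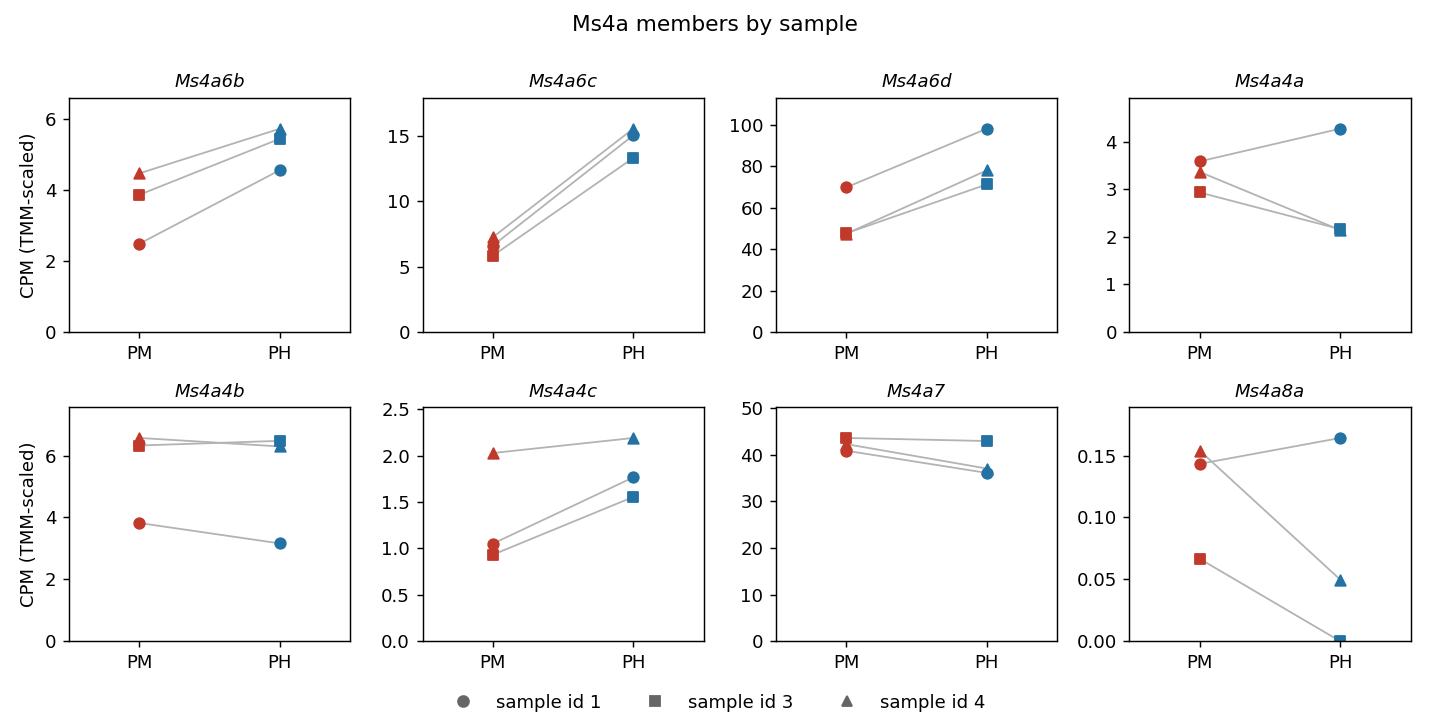
Level of each of the 8 members in TMM-scaled CPM (linear axes from 0) in the 3 PM and 3 PH samples. Each point is a sample, its shape gives the sample id, and a line joins the PM and PH samples of the same id. The PM points of Ms4a6b, Ms4a6c and Ms4a6d lie below all PH points, and those of the other 5 members overlap with the PH points.

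Ms4a6c, a transcript of monocytes and related myeloid cells in the mouse, lies on the plus strand at chr19:11469366-11482192. It was at 6.59, 5.83 and 7.24 CPM in PM samples 1, 3 and 4, against 15.03, 13.3 and 15.5 CPM in PH samples 1, 3 and 4. Within each bacterium the samples stayed close together and the groups were far apart. The means were 6.55 ± 0.706 CPM with PM and 14.6 ± 1.17 CPM with PH (SD, n = 3 each), which the fit gave as a fold of 0.446. On the log2 scale edgeR put PM over PH at -1.16 ± 0.11 (SE; adjusted p = 0.00150), and by its p-value Ms4a6c ranked 37th of all genes tested. The PM to PH ratio was 0.439 in id 1, 0.438 in id 3 and 0.466 in id 4. The difference passed in all 16 alternative settings, with log2 fold changes between -1.25 and -1.08.

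Ms4a6d, known in mouse macrophages, lies on the minus strand at chr19:11586604-11604849 and was the most abundant member. It was at 69.8, 47.6 and 47.4 CPM in PM samples 1, 3 and 4, against 98.1, 71.2 and 78.0 CPM in PH samples 1, 3 and 4. The samples with id 1 were the highest under each bacterium, so that PM sample 1 nearly reached PH sample 3 although it was lower than PH sample 1. Means were 54.9 ± 12.9 CPM with PM and 82.5 ± 14.0 CPM with PH (SD, n = 3 each), or -0.60 ± 0.17 on the log2 scale (SE), which did not pass in edgeR (adjusted p = 0.132). With the block it was -0.60 ± 0.06 and passed in edgeR (adjusted p = 5.0e-10). Without PM replicate 1, which leaves the high PH sample 1 without its partner, it was -0.81 and passed (adjusted p = 0.0169 by edgeR). Without PH replicate 1 it was -0.46 and did not pass (adjusted p = 0.312 by edgeR). With the block and 1 id left out it lay between -0.67 and -0.53 and passed each time. Over all 16 alternatives it lay between -0.89 and -0.46 and passed in 8. The 2 columns whose names match a second sequencing run are PM sample 1 and PH sample 3. With the 4 columns of run 1 alone, Ms4a6d was at -0.89 with adjusted p = 0.00354 by edgeR, and Ms4a6c at -1.23 with adjusted p = 0.00152. These 4 columns hold PH sample 1 but not PM sample 1, so they are not balanced by id.

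Ms4a6b, known in T cells, lies on the plus strand at chr19:11516512-11531256. Its levels were 2.48, 3.86 and 4.47 CPM in PM samples 1, 3 and 4, against 4.56, 5.44 and 5.72 CPM in PH samples 1, 3 and 4. The groups did not overlap, but PM sample 4 and PH sample 1 were close, and here id 1 was the lowest under both bacteria. In edgeR the difference was -0.51 ± 0.21 on the log2 scale (SE; adjusted p = 0.345), and with the block -0.53 ± 0.14 (adjusted p = 0.00779). The call held with the block when any 1 id was left out (adjusted p 0.0134 to 0.0439 by edgeR). Those fits have few pairs, so their p-values lean on variance shared across genes, and they called 1529 to 2145 of all genes.

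The 3 Ms4a6 genes are close relatives. In GENCODE release M21 the coding sequences of Ms4a6b and Ms4a6c were 85.4% identical over 642 aligned bases, those of Ms4a6b and Ms4a6d 81.2% over 730 and those of Ms4a6c and Ms4a6d 79% over 638. Reads that match several members could be lost or shared in counting, and the sources used here do not say how such reads were handled. Of the windows of 50 bases along the Ms4a6c transcript, 11.9% also occurred in transcripts of genes elsewhere in the genome (Ms4a6b, Prdm11 and Upb1), against 5.89% for Ms4a6b and 2.92% for Ms4a6d. In windows of 100 bases these shares were 0.574%, 0% and 0%. The read length is not given, so the share of reads concerned is unknown. An antisense gene, BE692007, overlaps 5.49% of the Ms4a6c exons in the table, and its own counts were 3, 0 and 7 in PM samples 1, 3 and 4, and 5, 3 and 3 in PH samples 1, 3 and 4. Gm19261, on the other strand, overlaps 0.709% of the Ms4a6b exons and had at most 1 count in any sample.

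The promoters of Ms4a6c and Ms4a6b are shown because these neighbours share sequence before their start sites, with that of Ms4a7, a member that was not lower with PM, for comparison. Each is the 250 bases before the start site in RefSeq (GRCm38.p6), read 5′ to 3′ on the gene's strand, at chr19:11469118-11469367 (plus) for Ms4a6c, chr19:11518309-11518558 (plus) for Ms4a6b and chr19:11336147-11336396 (minus) for Ms4a7. The Ms4a6b window lies inside the gene as counted, which starts at 11516512, so its RefSeq start site is not the first base of the counted gene. RefSeq promoters were found for 7 of the 8 members, without Ms4a6d. Capitals mark GAAANNGAA on either strand, a shortened form of the interferon-stimulated response element core, to which interferon regulatory factors bind and which has 1 more A at the end.
Ms4a6c: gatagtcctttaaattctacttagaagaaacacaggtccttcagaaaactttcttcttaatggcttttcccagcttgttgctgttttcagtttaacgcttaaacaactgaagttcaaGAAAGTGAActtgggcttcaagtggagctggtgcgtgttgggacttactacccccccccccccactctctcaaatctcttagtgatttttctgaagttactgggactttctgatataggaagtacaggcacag
Ms4a6b: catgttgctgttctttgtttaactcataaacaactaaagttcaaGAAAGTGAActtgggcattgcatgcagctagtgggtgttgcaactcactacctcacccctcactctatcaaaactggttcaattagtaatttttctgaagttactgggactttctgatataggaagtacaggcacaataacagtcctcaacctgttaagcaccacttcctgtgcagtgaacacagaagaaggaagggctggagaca
Ms4a7: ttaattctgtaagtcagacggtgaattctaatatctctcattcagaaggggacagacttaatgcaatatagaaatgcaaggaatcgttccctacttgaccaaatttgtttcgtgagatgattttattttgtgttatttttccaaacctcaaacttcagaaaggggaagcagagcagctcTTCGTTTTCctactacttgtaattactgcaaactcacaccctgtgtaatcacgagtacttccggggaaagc
The first 2 of these sequences aligned over 173 bases with 88.4% identity, and their longest run of identical letters was 48 bases. Both held GAAAGTGAA on the plus strand, at positions -133 to -125 from the start of Ms4a6c and -206 to -198 from that of Ms4a6b. The match of Ms4a7 lies on the minus strand of the printed sequence, at -71 to -63. GAAANNGAA stood in 8.56% of all 32851 RefSeq promoters of 300 bases (250 before and 50 after the start), and in those of 3 of the 7 members, Ms4a6b, Ms4a6c and Ms4a7, the last with 1 match in each of its 2 promoters. The core with the further A was found in 3.44% of all promoters and in no promoter of a member. Of 19 interferon-inducible genes from the list described further on that had a RefSeq promoter, 11 held this core and 12 the shortened form. GAGGAAGT, a PU.1 site, occurred in no member's promoter and in 3.2% of all promoters. The members have only 8 promoters, so the lack of the longer core or of GAGGAAGT does not set them apart. Both strands were searched, GAAANNGAA lies within every match of the longer core, and a match describes the letters in this window only.

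The Ms4a4 genes did not pass. Ms4a4c, a transcript of mouse monocytes and lymphocytes known to be inducible by interferon (plus strand, chr19:11407661-11427246), was at 1.05, 0.932 and 2.03 CPM in PM samples 1, 3 and 4, against 1.77, 1.55 and 2.19 CPM in PH samples 1, 3 and 4. It was lower with PM within each id, but PM sample 4 was above PH samples 1 and 3. The difference of -0.45 ± 0.32 on the log2 scale (SE) had an adjusted p of 0.612 in edgeR, and of 0.248 with the block. Its coding sequence was 91.7% identical to that of Ms4a4b over 678 bases, and 8.48% of its windows of 50 bases were shared with other genes, against 4.19% for Ms4a4b.

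Ms4a4b, known in the mouse as a T cell protein that associates with the receptor GITR, lies on the plus strand at chr19:11443573-11467055. It was at 3.82, 6.33 and 6.57 CPM in PM samples 1, 3 and 4, against 3.16, 6.48 and 6.30 CPM in PH samples 1, 3 and 4. The samples of id 1 were low under both bacteria and the other 4 were alike. PM over PH was 0.10 ± 0.29 on the log2 scale (SE), where edgeR gave an adjusted p of 0.923, and of 0.735 with the block. The summed level of 8 T cell markers was likewise lowest in id 1, at 22.5 CPM in PM sample 1 and 23.9 CPM in PH sample 1, and their part in the level of Ms4a4b was not tested.

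Ms4a4a, known as a macrophage surface protein that associates with the beta-glucan receptor dectin-1, lies on the plus strand at chr19:11375523-11392790. It was at 3.58, 2.93 and 3.36 CPM in PM samples 1, 3 and 4, against 4.27, 2.16 and 2.14 CPM in PH samples 1, 3 and 4. With ids 3 and 4 it was higher with PM, by ratios of 1.36 and 1.57, and with id 1 lower, by a ratio of 0.839. Over all ids the difference was 0.19 ± 0.27 on the log2 scale (SE), and edgeR gave an adjusted p of 0.837, or 0.357 with the block. Without id 1, the blocked fit gave 0.57 with adjusted p = 0.0343 by edgeR, higher with PM. That fit rests on few pairs and called 2145 of 14958 genes.

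Ms4a7, known in macrophages and microglia (minus strand, chr19:11321039-11336144), was the second most abundant member and the steadiest. It was at 40.8, 43.6 and 42.3 CPM in PM samples 1, 3 and 4, against 36.1, 42.9 and 37.0 CPM in PH samples 1, 3 and 4. PM was higher within each id, but PH sample 3 was above PM samples 1 and 4. The means of 42.2 ± 1.37 CPM with PM and 38.7 ± 3.70 CPM with PH (SD, n = 3 each) differed by 0.13 ± 0.08 on the log2 scale (SE), and edgeR gave an adjusted p of 0.523, or 0.134 with the block. No window of 50 bases of Ms4a7 or Ms4a4a was found in another gene's transcript.

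Ms4a8a, known in alternatively activated mouse macrophages (minus strand, chr19:11067471-11081102), had 3, 2 and 6 counts in PM samples 1, 3 and 4, and 4, 0 and 2 counts in PH samples 1, 3 and 4. It did not pass the filter on low counts, and no fold is given. In PH sample 3, a count of 0 allows up to 0.259 CPM (3 counts, for counting error only).

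Per length, the members spanned a wide range. In RPKM (CPM per kilobase of exon), the mean was 35.8 with PM and 53.7 with PH for Ms4a6d, and 24.6 with PM and 22.6 with PH for Ms4a7. Ms4a4a came to 3.94 with PM and 3.42 with PH, and Ms4a6c to 3.56 with PM and 7.94 with PH. The sample ranges of these neighbours overlapped with PM, and Ms4a6c was the higher in every PH sample. Ms4a6b was at 1.34 with PM and 1.96 with PH, Ms4a4b at 1.17 with PM and 1.12 with PH, and Ms4a4c at 0.776 with PM and 1.07 with PH. The lowest was Ms4a8a, at 0.112 with PM and 0.0660 with PH. Across samples the RPKM ranges of Ms4a4b and Ms4a4c overlapped under each bacterium, as did those of Ms4a6b and Ms4a4b with PM, and the RPKM of Ms4a6d and Ms4a7 was above that of every other member in all 6 samples.

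**Figure D2:**
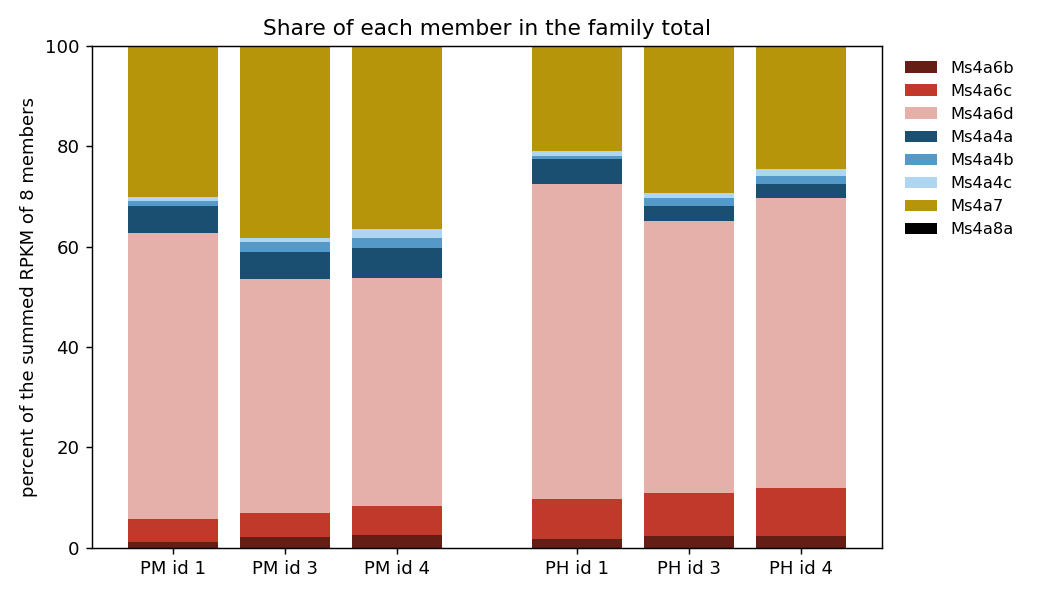
Share of each member in the summed RPKM of the 8 members, in percent, with PM samples on the left and PH samples on the right. Ms4a6d takes 45.5% to 57.1% in PM samples and 54.2% to 62.8% in PH samples, and Ms4a7 takes 29.9% to 38.2% in PM samples and 20.7% to 29.3% in PH samples.

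Ratios between members within a library do not depend on how libraries are scaled. For every 100 counts of Ms4a7 there were 16.1, 13.4 and 17.1 counts of Ms4a6c in PM samples 1, 3 and 4, against 41.6, 31.0 and 41.9 in PH samples 1, 3 and 4. The groups did not overlap. Per 100 counts of Ms4a7, Ms4a6d had 171, 109 and 112 counts in PM samples 1, 3 and 4, against 272, 166 and 211 in PH samples 1, 3 and 4, so that PM sample 1 was above PH sample 3. Of the counts of the 8 members, the 3 Ms4a6 genes took 61.5%, 51.6% and 52.1% in PM samples 1, 3 and 4, against 72.1%, 62.9% and 67.5% in PH samples 1, 3 and 4. Within the Ms4a6 genes, Ms4a6c also had fewer counts per 100 of Ms4a6d with PM (9.45, 12.2 and 15.3) than with PH (15.3, 18.7 and 19.9) within each id, with PM sample 4 just below PH sample 1.

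The 7 tested members varied differently over the 6 samples. The sum of squares of log2 CPM was split between the bacterium, the sample id and the rest, as a description. The sample id has more levels than the bacterium, so noise alone would give it the larger share. The bacterium took 96.3% for Ms4a6c, 62.7% for Ms4a6d and 52.8% for Ms4a6b, but 1.39% for Ms4a4b and 14.2% for Ms4a4a. The sample id took 96.3% for Ms4a4b and 58.3% for Ms4a4a, and 3.54% for Ms4a6c. Over all genes tested the mean shares were 27.5% for the bacterium and 48.1% for the sample id. Ms4a7 and Ms4a4c lay between, at 38.5% and 33.1% for the bacterium, and the SD of log2 CPM was 0.12 for Ms4a7 and between 0.39 and 0.64 for the other 6.

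**Figure D3:**
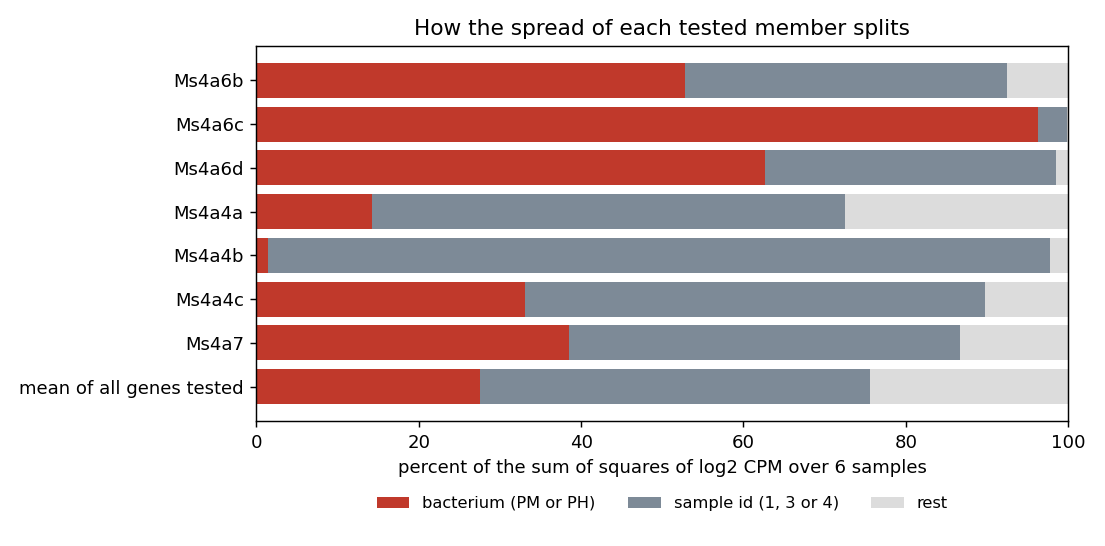
Split of the sum of squares of log2 CPM over the 6 samples between the bacterium, the sample id and the rest, in percent, for the 7 tested members and as the mean over all genes tested. Ms4a6c is almost wholly red (96.3% for the bacterium) and Ms4a4b almost wholly blue-grey (96.3% for the sample id).

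The genes most alike in pattern differed accordingly. Likeness was the root mean square difference of centred log2 CPM over the 6 samples. Since these same samples picked the genes, their fold changes and calls largely follow from the choice and are no separate evidence. For Ms4a6c the nearest tested genes were Trim30a (0.06), Slfn8 (0.06) and Parp14 (0.07), with log2 fold changes of -1.12, -1.19 and -1.10, and each passed on its own. For Ms4a6d they were Ppp1r12b (0.04), Sdc4 (0.05) and Shroom4 (0.05), and for Ms4a6b Kntc1, Usp18 and Dlc1 (0.10 each). None of these 6 passed without the block and all 6 passed with it. For Ms4a4b the nearest were Nmb, Ccdc85a and Htr1b, for Ms4a4a 5031425F14Rik, Cxcl5 and Pfn4, for Ms4a4c Ehd2, Fkbp7 and Ret, and for Ms4a7 Sirt3, 2210408F21Rik and Ldb1. Among the members themselves, the closest pair was Ms4a4c and Ms4a6b (0.31) and the next Ms4a6c and Ms4a6d (0.36), while Ms4a4a and Ms4a6c were farthest apart (0.78).

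Along the cluster, the 3 Ms4a6 genes and Ms4a4c, the 4 tested members below 0, lay side by side with Ms4a4b among them. The deposited coordinates put 35 genes in the span, of which 12 were tested, 11 Ms4a genes and AW112010. Ms4a4b lies between Ms4a4c and Ms4a6c and had a log2 fold change of 0.10, against -0.45 and -1.16 for these neighbours. AW112010, a long non-coding RNA known to be inducible by interferon and named here after its values were seen, was at 261, 342 and 348 CPM in PM samples 1, 3 and 4, against 355, 412 and 369 CPM in PH samples 1, 3 and 4. The groups did not overlap, and in edgeR the difference was -0.26 ± 0.12 on the log2 scale (SE; adjusted p = 0.395, or 6.97e-04 with the block). The nearest tested genes outside, Ccdc86 on one side (-0.08 ± 0.17 SE) and Oosp1 on the other (0.16 ± 0.35 SE), did not pass in either fit.

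**Figure D4:**
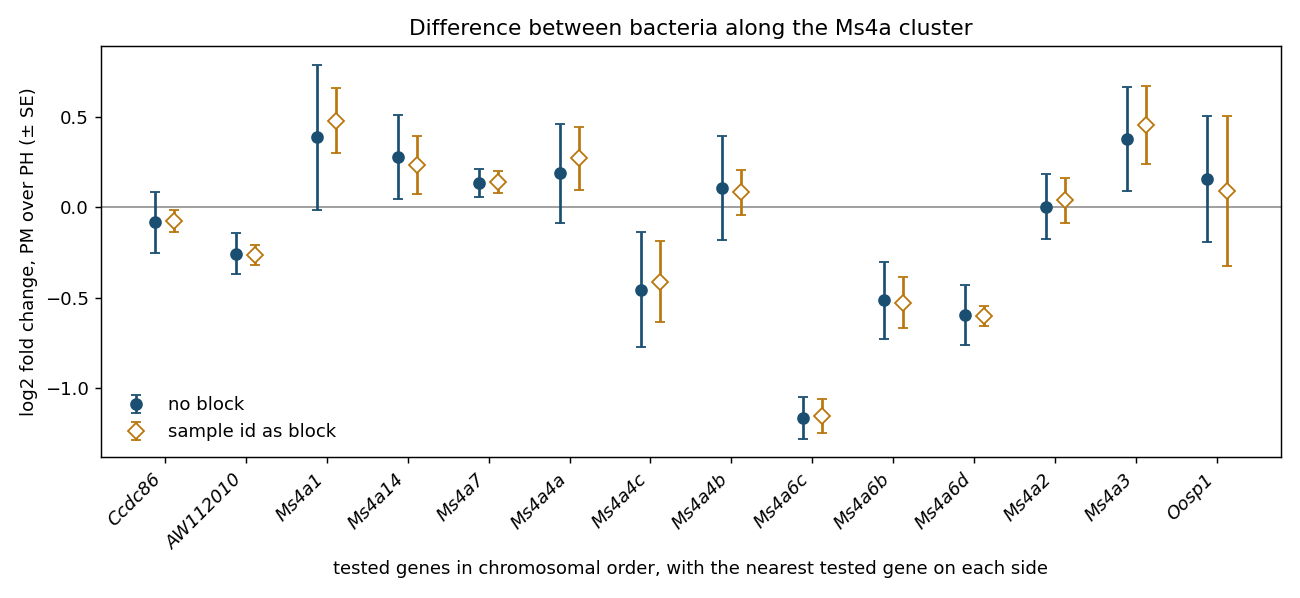
Log2 fold change, PM over PH, with its SE, for the 12 tested genes of the cluster in chromosomal order and the nearest tested gene on each side. Filled circles are the fit without and open diamonds the fit with the sample id as a block. Ms4a6c is the lowest at -1.16, and the neighbours Ms4a4b (0.10) and Ms4a6b (-0.51) lie above it.

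The rest of the family in the table had 13 genes, counting the related tetraspan genes Tmem176a and Tmem176b. Of these, 6 had no count in any sample (Ms4a5, Ms4a10, Ms4a12, Ms4a13, Ms4a15 and Ms4a18), and 6 were tested. Among the 6, edgeR called 0, with 0 at an unadjusted p under 0.05 and 0 by DESeq2. Ms4a1, encoding CD20, was at 4.49, 2.23 and 2.36 CPM in PM samples 1, 3 and 4, against 3.65, 1.55 and 1.49 CPM in PH samples 1, 3 and 4 (log2 fold change 0.39 ± 0.40 SE). Its highest samples were those of id 1, whose B cell markers were also highest, at 56.1 CPM with PM and 52.5 CPM with PH, against 29.0 to 32.7 CPM in the other samples. Their part in the level of Ms4a1 was not tested.

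Ms4a2, the IgE receptor beta chain, averaged 6.32 ± 1.33 CPM with PM and 6.26 ± 0.982 CPM with PH (SD, n = 3 each). The summed level of mast cell and basophil markers was 115 to 131 CPM in PM samples and 124 to 142 CPM in PH samples. In this list the histidine decarboxylase gene Hdc passed, with a mean of 23.1 CPM with PM and 38.0 CPM with PH. The rest of the list did not go with it. Cpa3, Kit, Gata2, Tpsb2 and Fcer1a were at 0.01, 0.10, 0.18, 0.24 and 0.25 on the log2 scale, and Mcpt8 at -0.05. None of these passed in either fit. Ms4a3, a gene of myeloid progenitors, averaged 1.98 ± 0.625 CPM with PM and 1.48 ± 0.360 CPM with PH, and Ms4a14 3.35 ± 0.731 CPM with PM and 2.90 ± 0.783 CPM with PH. Tmem176a (165 ± 22.2 CPM with PM and 180 ± 35.0 CPM with PH) and Tmem176b (218 ± 21.7 CPM with PM and 223 ± 34.2 CPM with PH) were more abundant than any member, with log2 fold changes of -0.12 ± 0.14 and -0.03 ± 0.12 (SE). Ms4a4d had 7, 5 and 3 counts in PM samples 1, 3 and 4 and 7, 2 and 13 counts in PH samples 1, 3 and 4, and was not tested.

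A list of 10 partners held receptors, ligand-presenting molecules and adaptors linked to MS4A proteins. Of these 9 were tested, and Clec7a passed, higher with PM, beside 0.702% of all genes. With the block 4 passed, each higher with PM, beside 7% of all genes. Clec7a encodes dectin-1, the partner of MS4A4A, and was at 400, 298 and 331 CPM in PM samples 1, 3 and 4, against 196, 129 and 151 CPM in PH samples 1, 3 and 4 (1.11 ± 0.16 SE on the log2 scale; edgeR adjusted p = 0.00847, and 0.0601 without PH replicate 4). The groups did not overlap, while those of Ms4a4a did. With the block, Trem2, a lipid receptor of macrophages (0.64, adjusted p = 8.8e-11), its adaptor Tyrobp (0.22, adjusted p = 6.2e-04) and Card9, an adaptor downstream of dectin-1 (0.16, adjusted p = 0.0488), were also higher with PM by edgeR. When any 1 id was left out of the blocked fit, the calls of Trem2 and Tyrobp held and that of Card9 was lost (adjusted p 0.0518 to 0.356 by edgeR). Trem2 was at 108, 75.8 and 81.1 CPM in PM samples 1, 3 and 4, against 75.4, 45.9 and 50.3 CPM in PH samples 1, 3 and 4, with adjusted p = 0.184 without the block. Syk, the kinase of dectin-1 (-0.03 ± 0.09 SE), Fcer1g (-0.10 ± 0.14), Tnfrsf18, which encodes GITR (-0.09 ± 0.16), Cd74 (0.01 ± 0.11) and H2-Ab1 (-0.11 ± 0.08) did not pass in either fit over all ids. Without id 1, the blocked edgeR fit called 3 of these lower with PM, Fcer1g at -0.17 (adjusted p = 0.00261), H2-Ab1 at -0.16 (adjusted p = 0.0126) and Tnfrsf18 at -0.19 (adjusted p = 0.0259). Vsig4 had no count in any sample, which allows at most 0.0747 to 0.259 CPM per sample.

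Interferon-inducible genes were set beside the members because several Ms4a genes are known to respond to interferon. Of 25 such genes tested, all 25 had a log2 fold change below 0. Lower with PM, 21 passed, beside 1.64% of all genes, and with the block all 25 passed, beside 8.27%. On the log2 scale their median was -1.74, beside 0.01 over all genes, and they ranged from -2.68 for Rtp4 to -0.19 for Mx1. Ms4a6c, at -1.16, lay within that range and above its median. Ms4a6d, Ms4a6b and Ms4a4c, at -0.60, -0.51 and -0.45, lay near its upper end, and Ms4a7, Ms4a4a and Ms4a4b lay above all 25. This list had been seen to differ in these samples and is not independent evidence of a direction.

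The macrophage list set beside Ms4a4a, Ms4a7 and Ms4a8a had 22 genes, of which 15 were tested. The scavenger receptor gene Marco passed, lower with PM, at 366, 317 and 343 CPM in PM samples 1, 3 and 4, against 645, 507 and 561 CPM in PH samples 1, 3 and 4 (-0.74 ± 0.10 SE on the log2 scale; edgeR adjusted p = 0.00651). The median of the list was 0.08. With the block, 5 passed, in a fit that called 15.3% of all genes. Marco was lower and 4 were higher with PM, the mannose receptor gene Mrc1 (0.69), the lipid carrier gene Apoe (0.62) and the lectin genes Clec10a (0.49) and Mgl2 (0.15). Ms4a4a and Ms4a7, at 0.27 and 0.14 with the block, did not pass.

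**Figure D5:**
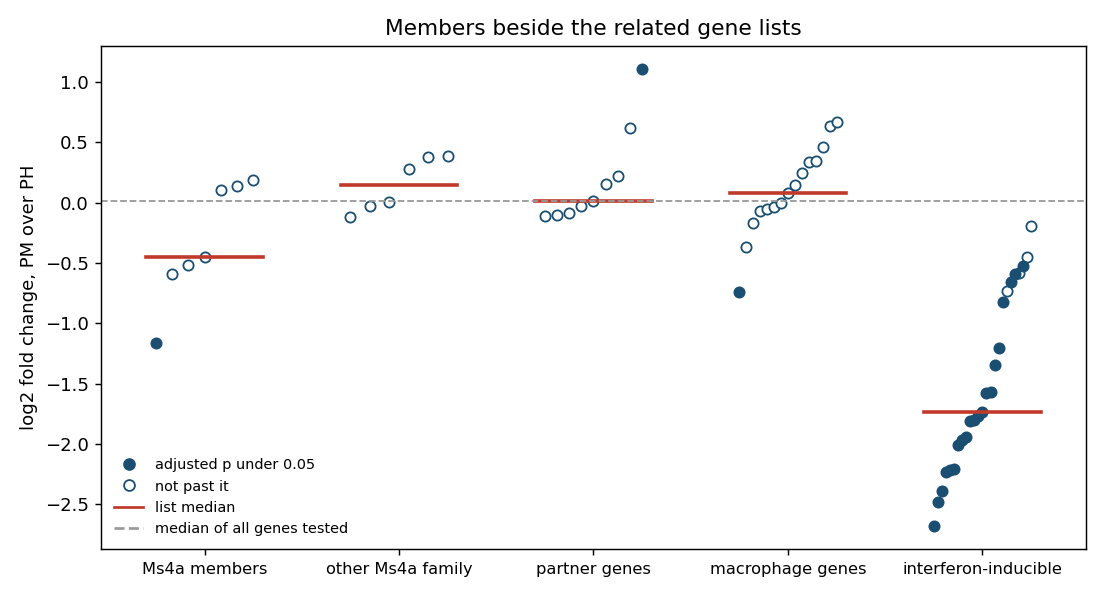
Log2 fold change, PM over PH, of every tested gene of the Ms4a members, the other Ms4a family genes, the partner genes, the macrophage genes and the interferon-inducible genes. Filled points passed an adjusted p of 0.05, red lines are list medians (-0.45 for the members, -1.74 for the interferon-inducible genes) and the dashed line is the median of all genes tested (0.01).

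No conventional dendritic cell marker passed without the block. With it, Irf4, Irf8 and Fscn1 were lower and Clec9a higher with PM. Markers of some other cell types also differed between PM and PH. The 8 monocyte markers summed to 398, 298 and 299 CPM in PM samples 1, 3 and 4, against 484, 354 and 391 CPM in PH samples 1, 3 and 4, lower with PM within each id but with overlapping groups, and none was at 0 in all samples. Cx3cr1, the fractalkine receptor gene of patrolling monocytes, passed (-0.78 on the log2 scale, edgeR adjusted p = 0.0356). With the block 5 of the 8 passed, each lower with PM, beside 8.27% of all genes. Ly6c2, which marks classical monocytes, was at 149, 93.0 and 103 CPM in PM samples 1, 3 and 4, against 216, 149 and 167 CPM in PH samples 1, 3 and 4, and was highest in id 1 under each bacterium, as was Ms4a6d. Its adjusted p in edgeR was 0.161, and 7.5e-12 with the block. The list did not move as 1. Nr4a1, also known in patrolling monocytes, was at 20.02, 18.2 and 16.2 CPM in PM samples 1, 3 and 4, against 15.6, 15.3 and 15.2 CPM in PH samples 1, 3 and 4, with no overlap and PM the higher, and passed in neither fit (adjusted p = 0.315 by edgeR, and 0.0502 with the block). Vcan was at 0.09 on the log2 scale and passed in neither fit. The 6 NK cell markers summed to 12.9 to 18.0 CPM in PM samples and 20.3 to 26.5 CPM in PH samples, and the 5 markers of plasmacytoid dendritic cells, with Siglech near 0, to 214 to 227 CPM in PM samples and 302 to 326 CPM in PH samples. Single genes made up most of both gaps. Among the NK cell markers Gzmb passed, with a mean of 9.06 CPM with PM and 16.3 CPM with PH, while the groups of the other 5 overlapped. Among the plasmacytoid markers Bst2 passed, with a mean of 179 CPM with PM and 269 CPM with PH, and it is also in the interferon-inducible list. Ccr9 and Ly6d overlapped between the groups, and Tcf4 was lower with PM with the block (adjusted p = 0.00125 by edgeR). In the neutrophil list Csf3r passed, lower with PM, and S100a8 and S100a9 were lower with the block (adjusted p = 6.6e-06 and 9.8e-06 by edgeR). This list was mixed too. Elane was higher with PM without overlap, with means of 1.70 CPM with PM and 1.14 CPM with PH. Mpo was at 0.18 on the log2 scale, and both passed in neither fit. Cxcr2 and Ly6g overlapped between the groups. The part of these markers in the levels of the Ms4a6 genes was not tested.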

How the data were processed

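Polyadenylated RNA of bone marrow dendritic cells was sequenced from strand-marking libraries, per the labels' protocols. The deposited table holds whole-number read counts per gene with no normalization by the authors, and the exon length of each gene. Trimmomatic, STAR 2.5.3a, featureCounts 1.6.4 and GRCm38 were used, per the submitters' processing notes. The sources used here do not give the annotation, the strand setting or the treatment of multi-mapped reads. The series lists 8 libraries, and 6 count columns were deposited. The columns of PM id 1 and PH id 3 match 2 libraries each, from runs 1 and 2, and whether runs were summed is not given. Each column was used as 1 sample. Nothing says that ids are separate animals or cultures, so the p-values reflect only the spread between samples, which may be technical.

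The deposited counts entered edgeR's quasi-likelihood test (version 4.0.16, R 4.3.3, glmQLFit with robust estimates, TMM scaling, filterByExpr with a minimum count of 10), PM over PH with no covariate, over 14382 genes. The SE comes from the F value. CPM uses TMM-scaled totals, and log2 CPM a prior count of 2. The fit was tested on simulated data. No 2 columns agreed within sampling noise (chi-square per degree of freedom at least 4.63). Samples with the same id deviated together from their group means, with correlations of 0.44, 0.322 and 0.244 over genes. The ids were therefore used as pairs in the alternative fit with the block, while the main fit ignores them. Blocked values are printed where a call changes. Alternatives were DESeq2 1.42.0, other scaling, other filters, the block and left-out samples. Blocked fits leave little to estimate the variance of each gene, and least without 1 id, so their p-values lean on variance shared across genes. Named genes were the members, their family, fixed lists, the nearest genes in pattern and in position. Members and lists were chosen with earlier results of these data known. Exon overlaps come from the deposited table, transcripts from GENCODE release M21 and promoters from RefSeq. Some marker genes and a motif are not reported here.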

Additional observations from a re-analysis of the deposited data

How the results depend on the processing

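Counts of genes past the threshold depended on the fit. Over all genes, 337 passed, against 584 with DESeq2, 846 with no filter on low counts, 629 with the columns of run 1 alone and 2197 with the replicate block. When 1 sample was left out the count was 142 to 417, and 1529, 1580 and 2145 with the block when 1 id was left out. Of the members 1 passed, against 2 with DESeq2, with no filter and with run 1 alone (Ms4a6c and Ms4a6d in each), 3 with the block, 1 to 2 without 1 sample and 3 to 4 with the block without 1 id, the fourth being Ms4a4a, higher with PM without id 1. Of the other family genes 0 passed (0 at an unadjusted p under 0.05 in edgeR, 0 by DESeq2), and 0 without any 1 sample, and 0 to 1 with the block without 1 id, Tmem176a being lower with PM without id 1. The interferon-inducible count was 18 to 25 over all alternatives. Of the macrophage genes 1 passed, against 3 with no filter, 5 with the block and 4 to 6 with the block without 1 id (without id 1, 3 higher and 3 lower with PM), and 1 without any 1 sample. Of the partner genes 1 passed, against 2 with DESeq2, 4 with the block, 0 to 2 without 1 sample (0 without PH replicate 4, 2 without PH replicate 1) and 3 to 6 with the block without 1 id (without id 1, 3 higher and 3 lower with PM). Other scaling left each of these counts within 1.5 times. Of the tested members, Ms4a6b, Ms4a6c, Ms4a6d and Ms4a4c were lower with PM in all 16 alternatives and Ms4a7 higher in all 16, while Ms4a4a changed sign without PH replicate 4 (-0.04) and Ms4a4b without PM replicate 4 (-0.03) or PH replicate 1 (-0.18), none of which passed. The block changed no other call of a named member. The tested members other than Ms4a6d and Ms4a7 rest on 18 to 624 counts a sample, which limits what their differences can show.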
